A study of Mus musculus with 4 samples.

Results

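The genes of glycolysis described here are 10 genes of the 32285 whose RNA was counted: Slc2a1, Hk2, Pfkp, Aldoa, Gapdh, Pgk1, Eno1, Pkm, Ldha and Tpi1. They were chosen by symbol, as the glucose transporter and the enzymes that carry glucose to lactate. The gene table held 11 rows with these symbols, since Aldoa had a second row (ENSMUSG00000114515) that was at 0 in every CD8+ Tc sum and was left out. Single-cell RNA-Seq was run on spleen Tc of 4 BALB/c recipient mice, with 1 library per mouse. All recipients had received lethal total body irradiation, 10000 cells of the BALB/c AML line WEHI-3B and allogeneic BM, and 200000 donor Tc on day 2, and spleens were taken on day 23. In 2 libraries the donor Tc were Havcr2fl/fl;E8icre/+, in which cre under the CD8 enhancer E8i is meant to delete the floxed Havcr2 gene, encoding TIM-3, in CD8+ Tc but not in CD4+ Tc. In the other 2 the donor Tc were Havcr2fl/fl, which carry the floxed alleles without cre. The study's text gives these genotypes to the transplanted allogeneic BM as well as to the Tc. The marrow thus also differed between the groups in its stated genotype. All mice had thus received AML cells, irradiation and a graft, and no library came from an untreated mouse. The labels name a magnetic pan-Tc kit and the study's text also names a sort of donor Tc, and which of them preceded loading is not settled by these sources. Cells outside the T cell clusters were present in all 4 libraries.

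Glycolysis splits glucose into pyruvate in the cytosol, and lactate dehydrogenase turns pyruvate into lactate. Tc that are activated and divide are known to take up more glucose and to release lactate, whereas resting Tc rely more on mitochondrial respiration. The transcription factors MYC and HIF-1 are known to act on many glycolysis genes through short DNA elements built on the letters ACGTG.

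The libraries held 1511 to 6737 barcodes and 17693991 to 55045903 UMIs (unique molecular identifiers, 1 per captured RNA molecule). After filters on genes, UMIs, mitochondrial share and doublets, 11194 cells were used, with 1198 to 4198 per library. Of these, 4188 were CD8+ Tc, 1731 were CD4+ Tc and 4553 lay outside the T cell clusters, from 29.4% to 57.5% of a library. Pairs of libraries shared 1 to 10 barcodes. Each cell with at least 2000 UMIs was thinned to 2000. It was called resting at 0 to 2 UMIs on lists of S phase and G2/M genes or cycling at 6 or more. Resting thus means few cell cycle UMIs and does not mean naive or unactivated Tc. No glycolysis gene was on those lists. This gave 2327 resting and 852 cycling CD8+ Tc and 1176 resting and 174 cycling CD4+ Tc. Levels are UMIs summed per library and cell class, as counts per 1000000 UMIs of that sum (CPM). With 3′ counting a UMI stands for a molecule whatever its length. A level is a share of a class's RNA, so less RNA per cell and fewer expressing cells cannot be told apart in it. Values of the 4 libraries are given in a fixed order: Havcr2fl/fl;E8icre/+ replicates 1 and 2, then Havcr2fl/fl replicates 1 and 2. Havcr2 itself was at 61.8, 7.66, 54.8 and 116 CPM in all CD8+ Tc. The library labelled Havcr2fl/fl;E8icre/+ replicate 1 thus lay inside the range of the controls, and the ranges of the genotype differences are also given below without it. Which exons are deleted is not given in the sources used here. Counts from the 3′ end need not report a deletion upstream, so this level does not settle whether Havcr2 was deleted in that library.

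The sequences before 4 of the genes are shown because HIF-1 and MYC are known regulators of the pathway and these windows hold the letters those factors are known for. They are the 250 bases before a RefSeq transcription start on GRCm38.p6, 5′ to 3′ on the gene's own strand, with each ACGTG, or CACGT where it lies on the other strand, in capitals. CACGTG reads the same on both strands and was counted as an ACGTG on each.
Ldha, chr7:46845554-46845803, plus strand: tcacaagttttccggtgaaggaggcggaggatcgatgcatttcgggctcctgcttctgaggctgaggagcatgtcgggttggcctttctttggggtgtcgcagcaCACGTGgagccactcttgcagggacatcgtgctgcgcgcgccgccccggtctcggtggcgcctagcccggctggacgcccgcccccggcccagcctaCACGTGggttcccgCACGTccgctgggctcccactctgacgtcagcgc
Pgk1, chrX:106186850-106187099, plus strand: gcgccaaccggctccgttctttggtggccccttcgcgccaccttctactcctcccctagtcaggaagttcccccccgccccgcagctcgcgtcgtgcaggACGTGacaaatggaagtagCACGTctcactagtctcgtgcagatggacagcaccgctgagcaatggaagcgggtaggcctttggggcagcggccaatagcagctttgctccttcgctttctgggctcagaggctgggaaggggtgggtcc
Hk2, chr6:82774455-82774704, minus strand: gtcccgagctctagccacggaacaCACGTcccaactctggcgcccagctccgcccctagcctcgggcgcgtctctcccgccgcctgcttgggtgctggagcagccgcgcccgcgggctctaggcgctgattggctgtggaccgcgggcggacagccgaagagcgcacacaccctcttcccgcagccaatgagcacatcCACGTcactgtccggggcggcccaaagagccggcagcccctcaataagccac
Aldoa, chr7:126799255-126799504, minus strand: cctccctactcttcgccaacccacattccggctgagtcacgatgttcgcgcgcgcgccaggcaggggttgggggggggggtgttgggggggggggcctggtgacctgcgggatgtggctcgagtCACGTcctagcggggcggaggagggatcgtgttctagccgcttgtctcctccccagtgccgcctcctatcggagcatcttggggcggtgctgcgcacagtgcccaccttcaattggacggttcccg
The Ldha window held 5 such matches, those of Pgk1 and Hk2 held 2 each and that of Aldoa held 1. RefSeq gave 16 windows for the 10 genes. ACGTG on either strand was in 7 of the 16, belonging to Aldoa, Hk2, Ldha, Pgk1, Pkm and Slc2a1, against 16.6% of 32851 windows of this length over all genes. The full CACGTG was in an Ldha window alone among the 16, against 6.02% of all windows. GCGTG, the other HIF-1 core, was in 7 of the 16 windows, belonging to Eno1, Gapdh, Ldha, Pfkp and Slc2a1, against 28.2% of all. Some windows of the same gene overlapped, so the 16 are not independent. The Aldoa windows with ACGTG held the same match, and the Eno1 windows from 150236947 and 150236974 held the same GCGTG matches. The Tpi1 window held neither ACGTG nor GCGTG. These are matches of letters, and no binding was measured.

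In CD8+ Tc, the steps from triose phosphate to lactate carried most of the difference between cycling and resting cells. Tpi1, Ldha, Pgk1, Gapdh, Pkm, Eno1 and Pfkp were higher in cycling cells, by 2.89-fold for Tpi1 and 2.33-fold for Ldha, and no glycolysis gene was lower. This was 7 of 10 genes past the threshold, where 27.8% of the 9856 genes tested were higher and 24.4% were lower. Their median log2 difference was 0.83, against -0.02 over all genes tested. Together the 10 genes made up 2667, 2226, 2574 and 2809 CPM in resting and 4348, 4007, 4058 and 4741 CPM in cycling CD8+ Tc. The lowest cycling library lay above the highest resting one, and within each mouse the cycling cells were 1.58 to 1.80-fold higher on the CPM + 1 scale (mean 1.67-fold, n = 4 mice). Comparisons were made within mice with edgeR's quasi-likelihood test and Benjamini-Hochberg adjustment over all genes.

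**Figure D1:**
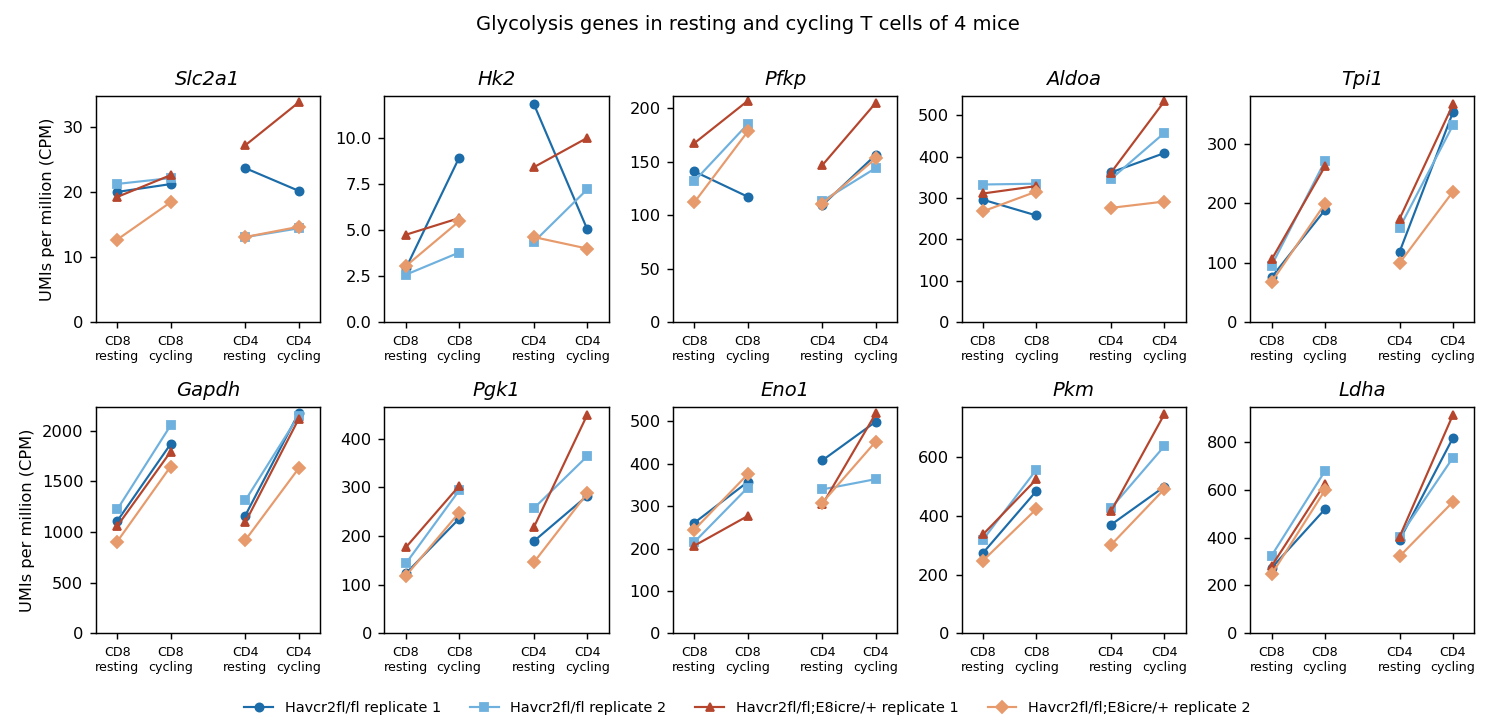
Level of each of the 10 genes (y axes, CPM, 1 panel per gene) in resting and cycling CD8+ and CD4+ Tc (x axes), with 1 coloured line per library. The lines of Tpi1, Ldha, Pgk1, Gapdh and Pkm rise from resting to cycling cells in all 4 libraries of both lineages, while those of Slc2a1, Hk2, Pfkp and Aldoa do not do so in every library.

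Glucose enters through Slc2a1 (GLUT1, ENSMUSG00000028645, chr4:119108711-119137983 on GRCm38, plus strand), the transporter known to be brought to the surface of activated Tc. Slc2a1 was at 19.2, 12.7, 19.99 and 21.2 CPM in resting and at 22.6, 18.4, 21.2 and 22.1 CPM in cycling CD8+ Tc. It was higher in cycling cells of each mouse, but the groups overlapped. The log2 difference of 0.35 (SE 0.16, adjusted p = 0.0782) did not pass the threshold, with a 95% interval of 0.01 to 0.68. Hexokinase 2 (Hk2, ENSMUSG00000000628, chr6:82725025-82774454, minus strand), which traps glucose in the cell as glucose 6-phosphate, had the lowest levels of the 10 genes in CD8+ Tc. It was at 4.74, 3.04, 2.92 and 2.57 CPM in resting and at 5.64, 5.47, 8.93 and 3.78 CPM in cycling CD8+ Tc. All 4 mice had more Hk2 in cycling cells, with a log2 difference of 0.81 (SE 0.36, adjusted p = 0.0629, interval 0.07 to 1.55) that did not pass the threshold.

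Phosphofructokinase (Pfkp, ENSMUSG00000021196, chr13:6579768-6648777, minus strand) makes the committing step to fructose 1,6-bisphosphate. Pfkp was at 167, 112, 141 and 132 CPM in resting and at 207, 178, 117 and 185 CPM in cycling CD8+ Tc. It was higher in 3 of 4 mice and lower in Havcr2fl/fl replicate 1, the library with the fewest cycling cells (54). Its log2 difference was 0.45 (SE 0.10, adjusted p = 3.69e-04), and 0.40 (adjusted p = 0.0544) in a fit without the mouse as a block. Aldolase A (Aldoa, ENSMUSG00000030695, chr7:126795234-126800751, minus strand), which cuts the fructose bisphosphate into triose phosphates, was at 311, 268, 296 and 332 CPM in resting and at 329, 315, 258 and 334 CPM in cycling cells. Havcr2fl/fl replicate 1 was again the library in which it was lower. The Aldoa difference of 0.15 (SE 0.07, adjusted p = 0.0678) did not pass the threshold, and without that library it was 0.22 (adjusted p = 0.0152). Without Havcr2fl/fl;E8icre/+ replicate 2 it was 0.08 (adjusted p = 0.448). The fits rescale the sums, and on the log2(CPM + 1) scale without this step the mean difference within mice was 0.03 for Aldoa. For Slc2a1 and Pfkp it was 0.22 and 0.30, also below the fitted values.

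Triose phosphate isomerase (Tpi1, ENSMUSG00000023456, chr6:124810586-124814296, minus strand), which interconverts the aldolase products, differed most. Tpi1 was at 105, 67.4, 75.4 and 95.2 CPM in resting and at 262, 199, 189 and 271 CPM in cycling CD8+ Tc. The lowest cycling library was well above the highest resting one. The log2 difference was 1.53 (SE 0.08, adjusted p = 1.54e-14, interval 1.37 to 1.69). Gapdh (ENSMUSG00000057666, chr6:125161715-125166467, minus strand) encodes the dehydrogenase that makes NADH in this pathway and is often used as a reference gene. It was at 1059, 906, 1109 and 1223 CPM in resting and at 1793, 1647, 1869 and 2053 CPM in cycling cells, again without overlap. Its log2 difference was 0.89 (SE 0.05, adjusted p = 1.46e-13). Gapdh gave 34.7% to 46.1% of the UMIs of the 10 genes in the libraries of the 4 T cell states, so the summed level follows it in good part.

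Phosphoglycerate kinase (Pgk1, ENSMUSG00000062070, chrX:106187100-106203699, plus strand), which makes ATP, was at 176, 118, 123 and 143 CPM in resting and at 303, 248, 235 and 293 CPM in cycling CD8+ Tc. The log2 difference of Pgk1 was 1.05 (SE 0.07, adjusted p = 8.22e-12), with no overlap of the groups. Enolase 1 (Eno1, ENSMUSG00000063524, chr4:150236721-150248879, plus strand), which makes phosphoenolpyruvate, was at 207, 245, 261 and 215 CPM in resting and at 277, 375, 357 and 344 CPM in cycling cells. It was higher in cycling cells by 0.65 on the log2 scale (SE 0.07, adjusted p = 1.43e-08). The near-identical copy Eno1b was counted apart, with a mean of 2.55 CPM in resting and 2.89 CPM in cycling CD8+ Tc. Gapdh, Pgk1, Ldha and Tpi1 also have processed pseudogenes in the mouse genome, and how reads shared with such copies were assigned was not checked. On GRCm38 (the build of all positions here), Slc2a1, Hk2, Pfkp, Aldoa, Gapdh and Tpi1 overlap other annotated genes, but on the other strand alone.

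Pyruvate kinase M (Pkm, ENSMUSG00000032294, chr9:59656368-59679375, plus strand), which makes pyruvate and ATP, was at 337, 248, 274 and 319 CPM in resting and at 524, 423, 484 and 557 CPM in cycling CD8+ Tc. Its log2 difference was 0.86 (SE 0.06, adjusted p = 2.16e-11). The counts do not separate the M1 and M2 isoforms, which share the 3′ end. Lactate dehydrogenase A (Ldha, ENSMUSG00000063229, chr7:46841475-46855627, plus strand) was at 281, 247, 273 and 325 CPM in resting and at 626, 598, 519 and 678 CPM in cycling cells. Both genes were without overlap between the groups, and the Ldha difference was 1.22 on the log2 scale (SE 0.07, adjusted p = 5.61e-14).

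**Figure D2:**
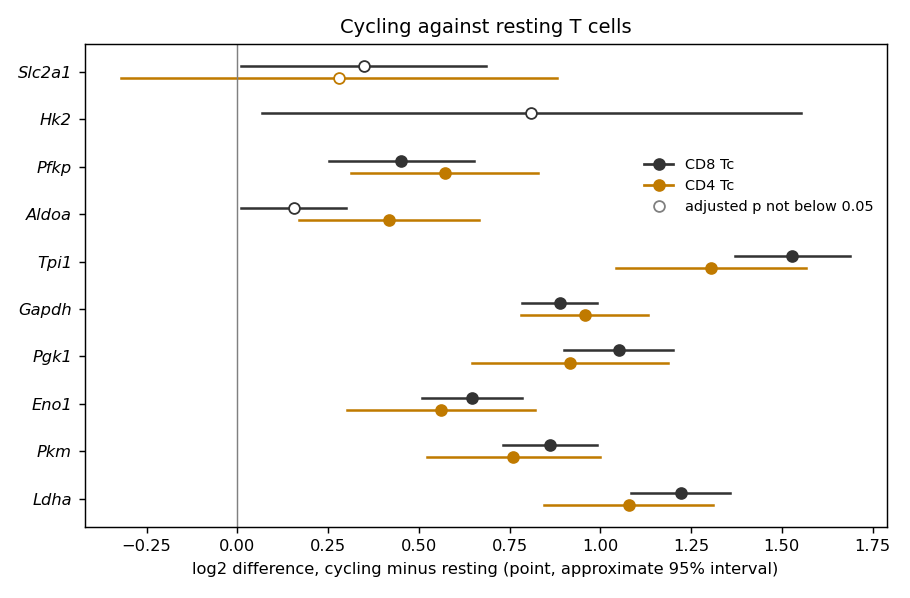
Log2 difference between cycling and resting cells (x axis) of each of the 10 genes (y axis) in CD8+ Tc (black) and CD4+ Tc (orange), n = 4 mice, with 95% intervals as lines and open points where the adjusted p was not below 0.05. Tpi1 lies farthest to the right in both lineages (1.53 and 1.30), and Hk2 has no CD4+ point because its counts were too low to be tested there.

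Cycling CD8+ Tc held more UMIs per cell than resting ones, so shares of cells with a UMI were compared at equal depth. The median UMIs per cell ranged over the libraries from 2925 to 6713 in resting and from 5681 to 15063.5 in cycling CD8+ Tc. A cell gave a mean of 8.77 to 18.5 UMIs on the 10 genes together in resting and of 29.6 to 67.4 in cycling CD8+ Tc, as counted. After thinning every cell to 2000 UMIs, which left out 32, 10, 14 and 146 CD8+ Tc with fewer, the share of cells with a Tpi1 UMI was 12.3% in resting and 30.02% in cycling CD8+ Tc (means over libraries), against 28.5% and 71.4% of the same cells before thinning. After thinning, the share with an Ldha UMI was 38.2% and 63.2%, that with a Pkm UMI 41.95% and 61.6%, and that with a Gapdh UMI 83.8% and 94.0%. The share with an Aldoa UMI was 42.8% and 40.2%. Slc2a1 was found in 3.45% and 4.72% and Hk2 in 0.726% and 1.55% of thinned cells, so both were read from few cells. As a measure of free RNA, an erythroid-like cluster of 1509 cells with median depths of 23304 to 62339.5 UMIs gave thinned shares of 0% for Slc2a1, 0.0494% for Hk2 and 1.41% for Pkm. Before thinning they were 1.47%, 8.24% and 8.31%, against 9.003%, 1.44% and 69.0% in resting CD8+ Tc. These cells are far deeper than Tc, so the thinned shares alone do not set a background for them. The Hk2 share of resting CD8+ Tc lay below that of this deeper cluster before thinning and above it after thinning (0.726% against 0.0494%). In erythroid-like clusters 10, 11 and 7, with median depths of 15700, 7231 and 4206 UMIs, the Hk2 share before thinning was 1.14%, 0.107% and 0%. The erythroid-like clusters thus did not share a level. Whether the Hk2 UMIs of resting CD8+ Tc came from expression or from free RNA was not tested.

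Marker lists of other cell types were read in the same sums. The summed erythroid list (10 genes, none at 0) was at 3386, 2028, 6186 and 1972 CPM in resting and at 1702, 1331, 6474 and 495 CPM in cycling CD8+ Tc. It was lower in cycling cells of 3 of 4 mice. The neutrophil list was at 26.9 to 76.1 CPM and 17.3 to 49.1 CPM, and the B lineage list at 55.4 to 124 CPM and 31.2 to 64.7 CPM. The myeloid progenitor list was at 312 to 451 CPM in resting and 341 to 543 CPM in cycling cells, against 1373 to 3438 CPM in the cells outside the T cell clusters. The list of T cell genes itself was at 8434 to 9895 CPM and 6670 to 7215 CPM. The list of effector genes was at 21000 to 32600 CPM in resting and 9914 to 17550 CPM in cycling cells. That of precursor exhausted genes was at 507 to 774 CPM and 93.1 to 257 CPM. The terminally exhausted list was at 1967 to 2292 CPM in resting and 1278 to 1855 CPM in cycling cells. Resting cells here were thus not unactivated Tc. The classes thus differed in Tc states besides cycling. The part of other cell types and of Tc states in the differences was not tested.

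Among 23 other enzymes and transporters of the pathway, 13 had enough counts to be tested in CD8+ Tc. Of these, 4 were higher in cycling cells, 1 was lower and 8 did not pass the threshold, with a median log2 difference of 0.13. Over all genes tested in this comparison, 27.8% were higher and 24.4% were lower. The 4 higher genes of the list were Eno3, Slc16a3, Slc16a1 and Pgam1. Pgam1, the mutase between the Pgk1 and enolase steps, was at 106, 98.8, 106 and 115 CPM in resting and at 173, 159, 135 and 169 CPM in cycling cells (log2 difference 0.71, adjusted p = 4.94e-08, and 0.38, adjusted p = 0.0154, on thinned cells). The lactate exporter Slc16a3 (MCT4) was at 11.1, 6.59, 7.08 and 5.79 CPM in resting and at 26.2, 16.4, 14.5 and 19.96 CPM in cycling cells (1.42, adjusted p = 1.34e-06). Slc16a1 (MCT1), which moves lactate and other monocarboxylates, was at 9.22, 4.56, 7.08 and 10.3 CPM in resting and at 22.0, 13.9, 14.5 and 9.17 CPM in cycling cells (1.16, adjusted p = 2.98e-04). Slc16a1 was lower in cycling cells of Havcr2fl/fl replicate 2, unlike the others. The muscle enolase Eno3 was at 7.37, 6.59, 2.92 and 17.4 CPM in resting and at 22.6, 32.3, 18.97 and 30.2 CPM in cycling cells (1.82, adjusted p = 2.17e-07).

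The gene that was lower was Slc2a3 (GLUT3), a glucose transporter with high affinity. Slc2a3 was at 62.9, 40.5, 55.4 and 60.5 CPM in resting and at 31.9, 24.9, 30.1 and 36.1 CPM in cycling CD8+ Tc, with no overlap. Its log2 difference was -0.74 (adjusted p = 1.44e-05), and -0.39 (adjusted p = 0.114) on thinned cells. In resting CD8+ Tc all 4 libraries thus had more Slc2a3 than Slc2a1 UMIs, and in cycling cells the levels of both lay closer together. Gpi1 and Hk1, the isomerase after hexokinase and the other main hexokinase, had log2 differences of -0.01 and 0.04 and did not pass the threshold.

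Of 12 regulators and HIF-1 targets, 10 were tested, with 1 higher, 2 lower and 7 not past the threshold. The shares over all genes tested were 27.8% higher and 24.4% lower. Myc, whose product is known to drive the glycolysis program of dividing Tc, was higher by 0.54 (adjusted p = 0.0109). This call was lost without Havcr2fl/fl;E8icre/+ replicate 2 (0.33, adjusted p = 0.133) and on thinned cells (0.33, adjusted p = 0.404). The HIF-1 targets P4ha1, a collagen prolyl hydroxylase subunit, and Pdk1, the kinase that holds pyruvate back from the mitochondria, were lower, with log2 differences of -0.55 (adjusted p = 0.00207) and -0.48 (adjusted p = 0.0194). On thinned cells P4ha1 differed by -0.25 (adjusted p = 0.488). The Pdk1 call was lost without Havcr2fl/fl;E8icre/+ replicate 2 (-0.31, adjusted p = 0.175), without Havcr2fl/fl replicate 1 (adjusted p = 0.0557) and by DESeq2 (adjusted p = 0.122), and on thinned cells Pdk1 differed by -0.83 (adjusted p = 0.0213). Hif1a had a log2 difference of -0.08 and did not pass the threshold.

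CD4+ Tc, in which E8i-cre is not meant to act, also held a larger share of RNA from most glycolysis genes when cycling. There, 8 of the 9 glycolysis genes tested were higher in cycling than in resting cells and none was lower, where 21% of the 8205 genes tested were higher and 18.9% were lower. The median log2 difference of the 9 was 0.76, against -0.04 over all genes tested. Together the 10 genes were at 3153, 2500, 3145 and 3374 CPM in resting and at 5890, 4091, 5214 and 5202 CPM in cycling CD4+ Tc, without overlap. The cycling sums rested on 63, 54, 14 and 43 cells, so Havcr2fl/fl replicate 1 gave only 14 cells. The CD4+ cycling cells of this library stay in the test and in the mean given below with n = 4. The library is left out of the mean of the cycling CD4+ cluster below, in which it had 12 cells.

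Tpi1 was at 174, 99.6, 118 and 159 CPM in resting and at 366, 219, 353 and 331 CPM in cycling CD4+ Tc, a log2 difference of 1.30 (SE 0.13, adjusted p = 8.77e-09). Ldha was at 404, 322, 390 and 405 CPM and at 913, 549, 817 and 734 CPM, a difference of 1.08 (SE 0.11, adjusted p = 3.02e-08). Gapdh was at 1095, 919, 1163 and 1312 CPM and at 2115, 1628, 2173 and 2149 CPM, a difference of 0.96 (SE 0.08, adjusted p = 1.57e-09). For these 3 genes the lowest cycling library lay above the highest resting one. Pgk1 (0.92, adjusted p = 4.08e-06), Pkm (0.76, adjusted p = 9.64e-06), Pfkp (0.57, adjusted p = 7.42e-04) and Eno1 (0.56, adjusted p = 9.28e-04) also passed the threshold.

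Aldoa was at 361, 276, 362 and 346 CPM in resting and at 534, 291, 408 and 457 CPM in cycling CD4+ Tc, a log2 difference of 0.42 (SE 0.12, adjusted p = 0.00762). It was higher in all 4 mice although the groups overlapped, and without Havcr2fl/fl;E8icre/+ replicate 1 the difference was 0.32 (adjusted p = 0.0940). Slc2a1 was at 27.2, 13.1, 23.7 and 13.1 CPM in resting and at 33.7, 14.6, 20.2 and 14.4 CPM in cycling cells. Its difference of 0.28 (SE 0.29, adjusted p = 0.478, interval -0.32 to 0.88) did not pass the threshold. Hk2, at 8.41, 4.61, 11.8 and 4.35 CPM in resting and 10.0, 3.99, 5.04 and 7.20 CPM in cycling CD4+ Tc, was higher in 2 of 4 mice and had too few counts to be tested. On cells thinned to 2000 UMIs, 5 of the genes passed the threshold, and Pfkp, Aldoa and Eno1 did not.

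The summed erythroid list was at 2611, 4763, 240.5 and 763.6 CPM in resting and at 124.9, 3457, 131.1 and 7820 CPM in cycling CD4+ Tc. It was higher in cycling cells of Havcr2fl/fl replicate 2 and lower in those of the other 3 mice. Immunoglobulin genes took 0.0407% to 0.120% of the UMIs in resting and 0.0305% to 1.17% in cycling CD4+ Tc. The myeloid progenitor list was at 315 to 561 CPM and 434 to 700 CPM. Counted relative to the UMIs outside the hemoglobin and immunoglobulin genes, the 10 genes were at 3052 ± 373 CPM in resting and 5129 ± 720 CPM in cycling CD4+ Tc (SD, n = 4). Without Havcr2fl/fl replicate 2, 8 glycolysis genes still passed the threshold. The part of the other cells in the differences was not tested.

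In the other lists, Pgam1 was higher in cycling CD4+ Tc (log2 difference 0.71, adjusted p = 2.16e-04) and Slc2a3 lower (-0.62, adjusted p = 0.0311) among the 10 other enzymes and transporters tested, and 8 did not pass. Of 9 regulators tested, Pdk1 (-0.91, adjusted p = 0.00705) and Hif1a (-0.45, adjusted p = 0.0105) were lower and 7 did not pass. These calls on Slc2a3, Pdk1 and Hif1a were lost without either of the Havcr2fl/fl;E8icre/+ libraries, and that on Slc2a3 also without Havcr2fl/fl replicate 2. Without the first of these the adjusted p was 0.135 for Slc2a3, 0.0616 for Pdk1 and 0.0749 for Hif1a. Without the second it was 0.0584, 0.0863 and 0.224, and without Havcr2fl/fl replicate 2 it was 0.0972 for Slc2a3.

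Whether cycling went with a larger difference in CD8+ than in CD4+ Tc was tested as an interaction, and 0 of the 10 glycolysis genes passed the threshold, where 0.140% of 9983 genes tested did. In the main edgeR fit, 0 of the 10 had an unadjusted p below 0.05. The count was 1 with DESeq2 size factors in edgeR, and 2 of the 9 tested with the stricter cut between resting and cycling. The difference between the lineages was 0.25 for Tpi1 (interval -0.03 to 0.52, adjusted p = 0.660) and -0.26 for Aldoa (interval -0.54 to 0.01, adjusted p = 0.618). Tpi1 differed by 0.11 without Havcr2fl/fl;E8icre/+ replicate 2 or without Havcr2fl/fl replicate 2, and Aldoa by -0.49 without Havcr2fl/fl;E8icre/+ replicate 2. Hk2 had the widest interval, with 0.74 (-0.49 to 1.98), and the other 7 genes lay between -0.12 and 0.15. These intervals bound the differences that the data allow and do not show that the lineages act alike.

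Within the cycling CD8+ Tc, cells with at least as many UMIs on the G2/M as on the S phase list were compared with the others. Aldoa was lower in the G2/M cells, and it was the 1 gene of the 9 tested to pass the threshold, where 7.95% of 8394 genes were higher and 5.79% were lower. Aldoa was at 359, 360, 351 and 392 CPM in S phase cells and at 302, 275, 212 and 292 CPM in G2/M cells, with no overlap. Its log2 difference was -0.38 (SE 0.09, adjusted p = 0.00210), and -0.41 (adjusted p = 0.131) in a fit without the mouse as a block. The other 8 genes lay between -0.01 and 0.23, and Hk2 had too few counts. The sum of the 10 genes was 4301 ± 406 CPM in S phase cells and 4257 ± 356 CPM in G2/M cells (SD, n = 4).

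Between resting cells of the lineages, CD8+ Tc held a smaller share of the RNA of several enzymes than CD4+ Tc of the same mice. Tpi1, Eno1, Pgk1, Ldha and Pkm were lower in resting CD8+ Tc and Pfkp was higher. This was 5 of 10 genes lower and 1 higher, where 9.61% of the 9786 genes tested were lower and 9.22% were higher. Tpi1 was lower by 0.58 (log2 difference -0.58, adjusted p = 4.06e-06), Eno1 by 0.46 (-0.46, adjusted p = 5.02e-05), Pgk1 by 0.39 (-0.39, adjusted p = 0.00105), Ldha by 0.37 (-0.37, adjusted p = 4.24e-04) and Pkm by 0.28 (-0.28, adjusted p = 0.00656). Ldha was at 247 to 325 CPM in resting CD8+ Tc and at 322 to 405 CPM in resting CD4+ Tc, so the lineages overlapped at 1 library each.

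Pfkp, higher by 0.26 (adjusted p = 0.0262), did not hold without Havcr2fl/fl;E8icre/+ replicate 1 (adjusted p = 0.114) or without Havcr2fl/fl replicate 1 (adjusted p = 0.170). The adjusted p was 0.264 by DESeq2, 0.195 on thinned cells and 0.125 with a stricter cut between resting and cycling cells. Gapdh had a log2 difference of 0.01 (adjusted p = 0.928), Aldoa of -0.08 (adjusted p = 0.536), Slc2a1 of -0.10 (adjusted p = 0.815) and Hk2 of -0.95 (adjusted p = 0.0781). The comparison rests on the pairing within mice, and a fit without the mouse as a block called 0 of the 10 genes. In that fit the adjusted p of the 6 genes ran from 0.0542 for Eno1 to 0.343 for Pfkp.

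Over the clusters of Tc and other cells the summed level of the 10 genes spanned a wide range. Clusters were made without the glycolysis genes among the variable genes, are named by marker genes where the markers allow it, and are described here without a test. Cycling CD4+ Tc of cluster 4 were highest, at 5209 ± 946 CPM (SD, n = 3 libraries with at least 20 cells). A non-T cluster led by Prtn3, Elane and Mpo, genes of myeloid progenitors, followed at 4988 ± 538 CPM (n = 4). Whether its cells were normal progenitors or the injected WEHI-3B AML cells was not tested. The 2 cycling CD8+ clusters were at 4396 ± 388 CPM (led by S phase genes) and 4373 ± 398 CPM (led by G2/M genes). They held 49.2% and 40.5% of the cycling CD8+ Tc. Basophil/mast-like cells were at 4006 ± 562 CPM (n = 3) and neutrophil-like cells at 3791 ± 844 CPM (n = 4).

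**Figure D3:**
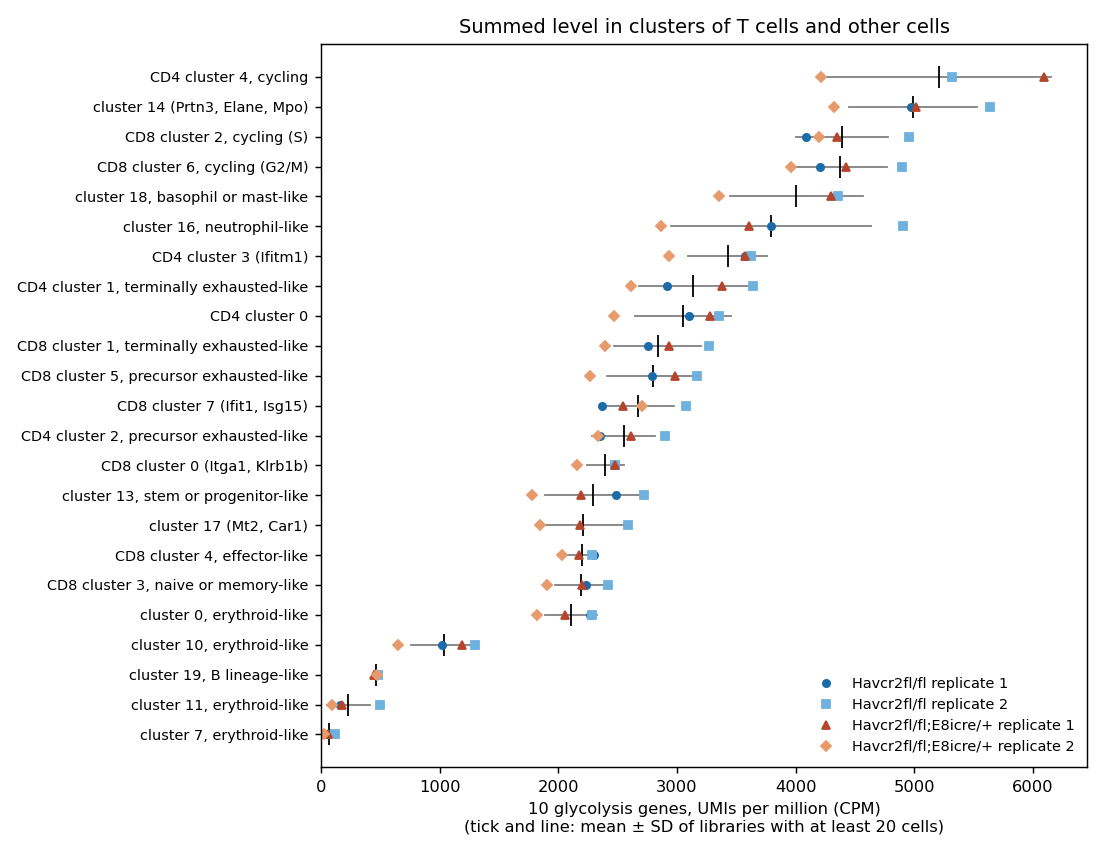
Sum of the 10 glycolysis genes (x axis, CPM) in each cluster with enough cells (y axis). Each library is 1 point, and a tick and line give the mean ± SD over libraries. The cycling Tc clusters and 3 myeloid clusters lie on the right, between 3791 and 5209 CPM on average, and erythroid-like clusters with much hemoglobin RNA lie on the left.

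The CD8+ clusters given next, none of them led by cycle genes, lay close together. Their sums take all cells of a cluster. Of the cells with at least 2000 UMIs, 0.769% (precursor exhausted-like) to 5.68% (terminally exhausted-like) met the cycling rule. In the CD4+ clusters below this share ran from 0.353% to 8.84%, highest in the cluster led by Ifitm1. The part of these cycling cells in the order was not tested. Terminally exhausted (TEX)-like cells were at 2839 ± 365 CPM, precursor exhausted (PEX)-like cells at 2801 ± 387 CPM, a cluster led by the interferon-response genes Ifit1 and Isg15 at 2673 ± 304 CPM, and a cluster led by Itga1 and Klrb1b at 2397 ± 159 CPM. Effector-like cells were at 2199 ± 125 CPM and naive/memory-like cells at 2188 ± 212 CPM (SD, n = 4 each). In CD4+ Tc, a cluster led by Ifitm1 was at 3427 ± 331 CPM and PEX-like cells were at 2550 ± 266 CPM. A cluster led by Ccl4 and Ccl3, labelled terminally exhausted-like in the figures, was at 3139 ± 461 CPM. Its top genes held both effector genes (Ccl5, Prf1, Ifng) and genes of the terminally exhausted list (Nr4a2, Eomes, Havcr2). The study names no exhausted CD4+ cluster, so that label is not settled. In the order of the 23 clusters with enough cells, only 2 neighbouring pairs did not overlap between libraries. Both lay at the low end, among erythroid-like and B lineage-like cells. CD8+ clusters 8 (led by S1pr5 and Zeb2) and 9, CD4+ cluster 5 (with Foxp3) and cluster 20 had too few cells and were left out.

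Tpi1 set these CD8+ clusters apart more than the sum did. Tpi1 was at 169 ± 63.6 CPM in the PEX-like CD8+ cluster, at 80.6 CPM in the cluster led by Itga1, at 52.5 CPM in the naive/memory-like cluster and at 30.2 ± 10.8 CPM in the effector-like cluster. On thinned cells, the share with a Tpi1 UMI was 25.9% in the PEX-like cluster (15.89% to 34.78% over libraries). It was 15.94% in the TEX-like cluster (10.34% to 21.4%), so these overlapped, and 6.77% in the cluster led by Ifit1 and Isg15. Hk2 had no UMI in the effector-like cluster of any library. Across all Tc, Hk2 was at 5.12 CPM, while basophil/mast-like cells had 80.2 ± 16.3 CPM, neutrophil-like cells 60.4 ± 12.2 CPM and the Prtn3, Elane and Mpo cluster 50.3 ± 15.1 CPM. Pfkp was at 146 CPM in all Tc, 138.6 CPM in basophil/mast-like cells and 103.8 CPM in the Prtn3, Elane and Mpo cluster, against 27.6 CPM in neutrophil-like cells and 11.4 CPM in the largest erythroid-like cluster.

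**Figure D4:**
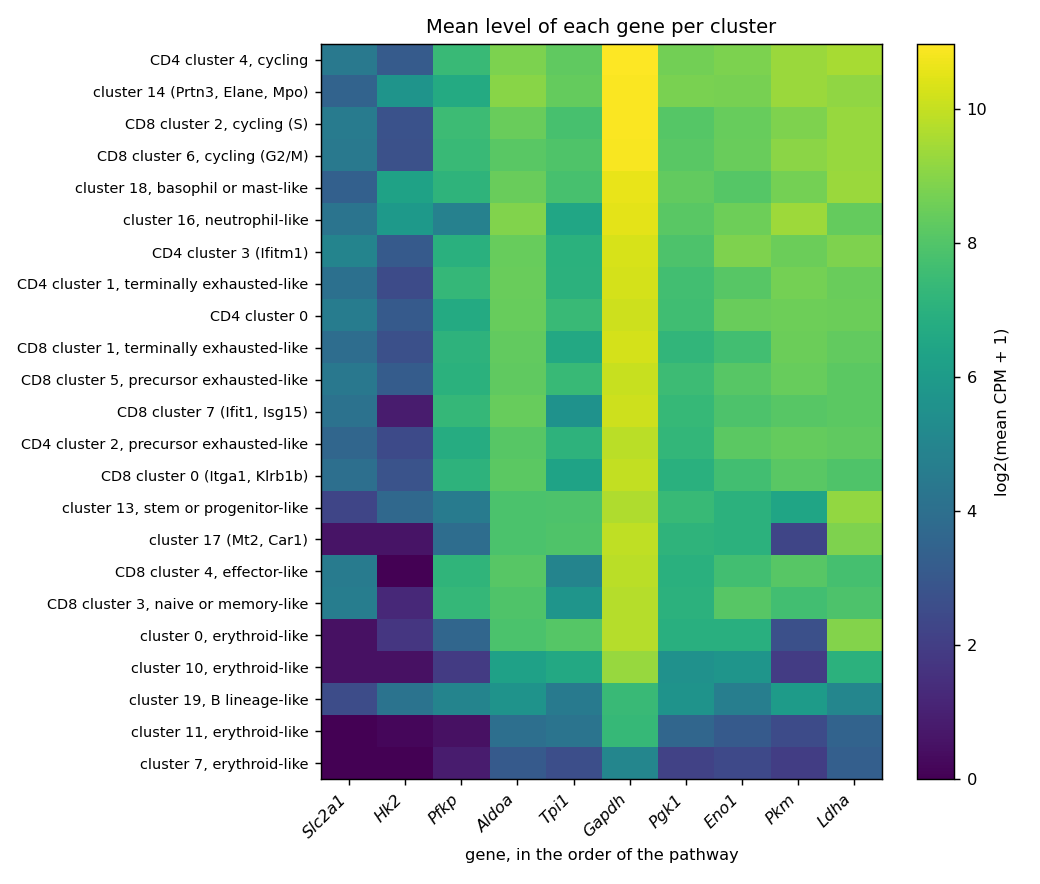
Heat map of log2(mean CPM + 1) of the 10 genes (columns) in 23 clusters (rows), where the mean is over the libraries with at least 20 cells. In erythroid-like cluster 0, Pkm and Slc2a1 are low (5.41 and 0.419 CPM) while Ldha and Tpi1 are not (492 and 268 CPM), and Hk2 is highest in clusters 14, 16 and 18.

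The largest erythroid-like cluster (0) showed a different set of isoforms. Nearly all of its cells (99.7%) met the cycling rule, yet the 10 genes were at 2107 ± 219 CPM, below cycling Tc. Pkm was at 5.41 CPM and Slc2a1 at 0.419 CPM there, while Ldha was at 492 CPM and Tpi1 at 268 ± 27.3 CPM. Pklr, the pyruvate kinase gene of liver and red cells, was at 74.7 ± 5.50 CPM there and at 0.810 CPM in resting CD8+ Tc. Pfkm, the muscle phosphofructokinase, was at 44.0 CPM against 3.28 CPM in resting CD8+ Tc, and Hk1 at 186 CPM against 86.9 CPM.

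In the erythroid-like cluster 7, hemoglobin genes took 56.2% to 64.6% of the UMIs and the 10 genes were at 65.6 ± 38.2 CPM. Bpgm, which diverts a glycolysis intermediate to 2,3-bisphosphoglycerate, was at 1926 ± 358 CPM there, against 26.3 CPM in resting CD8+ Tc. In B lineage-like cells, where immunoglobulin genes took 58.2% to 62.2% of the UMIs, the 10 genes were at 466 ± 16.6 CPM (n = 3). Counted relative to the UMIs outside the hemoglobin and immunoglobulin genes, the sums of these clusters were 158.8 CPM and 1197 CPM, still below the 2580 CPM that resting CD8+ Tc reached on that scale.

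Neutrophil-like cells and the Prtn3, Elane and Mpo cluster differed in the isoforms too. Hk3 was at 152 CPM in neutrophil-like cells and 89.0 CPM in the Prtn3, Elane and Mpo cluster, against 0.230 CPM in resting CD8+ Tc. Pkm was at 667 and 642 CPM in these 2 clusters. Tpi1 was at 88.1 CPM in neutrophil-like cells and at 333 CPM in the other. Slc2a3 was at 224 CPM and Slc16a3 at 133 CPM in neutrophil-like cells, of which 10.5% met the cycling rule, against 92.9% of the Prtn3, Elane and Mpo cluster.

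Over 101 sums of a library and a cell class, the genes outside all lists whose log2(CPM + 1) was most like that of the 10 genes together were Prelid1 (Pearson r = 0.970), Gnai3 (0.945), Capzb (0.944), Lamtor4 (0.941) and Aprt (0.939), among 2948 genes with a mean of at least 50 CPM. Points of 1 library share its preparation and depth, and erythroid-like classes with little of any of these RNAs set much of the range. Over the 62 Tc points alone, r was 0.838 for Prelid1, 0.626 for Capzb, 0.532 for Aprt, 0.453 for Gnai3 and 0.261 for Lamtor4. Among the 10 genes themselves, over the same Tc points, Pgk1 with Ldha (0.845) and Gapdh with Ldha (0.842) were most alike. Pfkp with Tpi1 (-0.10) and Pfkp with Eno1 (-0.04) were least alike.

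A question of the study was whether loss of TIM-3 in CD8+ Tc changes them. After anti-TIM-3 Ab treatment in another AML model, the study reported higher glycolytic capacity of Tc by flow cytometry. It also reported raised glycolysis metabolites in those Tc. These are other measures after another intervention, and the RNA levels here do not test them. The glycolysis genes were compared between the genotypes in 5 ways. These were all CD8+ Tc, resting CD8+ Tc, cycling CD8+ Tc, resting CD4+ Tc and the genotype by cycling interaction. All 10 genes were tested in each, except in resting CD8+ Tc, where 9 were tested and Hk2 had too few counts. Of the genes tested, 0 passed the threshold, and in the main edgeR fits 0 had an unadjusted p below 0.05. Over all genes tested, 0.0277%, 0.0404%, 0%, 0.0581% and 0% passed in these comparisons. DESeq2 called 0 of the glycolysis genes tested in each as well. The sum of the 10 genes in all CD8+ Tc was 3377 and 2789 CPM in the Havcr2fl/fl;E8icre/+ libraries and 2980 and 3613 CPM in the Havcr2fl/fl libraries. Each genotype thus had a high and a low library, and the groups overlapped.

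In all CD8+ Tc the log2 differences (Havcr2fl/fl;E8icre/+ minus Havcr2fl/fl) ran from -0.23 for Gapdh (interval -0.76 to 0.30) to 0.11 for Pfkp (-0.32 to 0.54). In resting CD8+ Tc they ran from -0.41 for Slc2a1 (-0.99 to 0.17) to 0.11 for Pgk1, and in cycling CD8+ Tc from -0.23 for Gapdh (-0.75 to 0.30) to 0.29 for Pfkp (-0.22 to 0.81). In resting CD4+ Tc they ran from -0.63 for Hk2 (-1.95 to 0.69) to 0.14 for Pfkp. The change of the cycling difference with genotype ran from -0.69 for Hk2 (-2.33 to 0.95) to 0.31 for Pfkp (-0.07 to 0.69), with 0.22 for Ldha (-0.04 to 0.48) and 0.24 for Aldoa (-0.04 to 0.52).

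**Figure D5:**
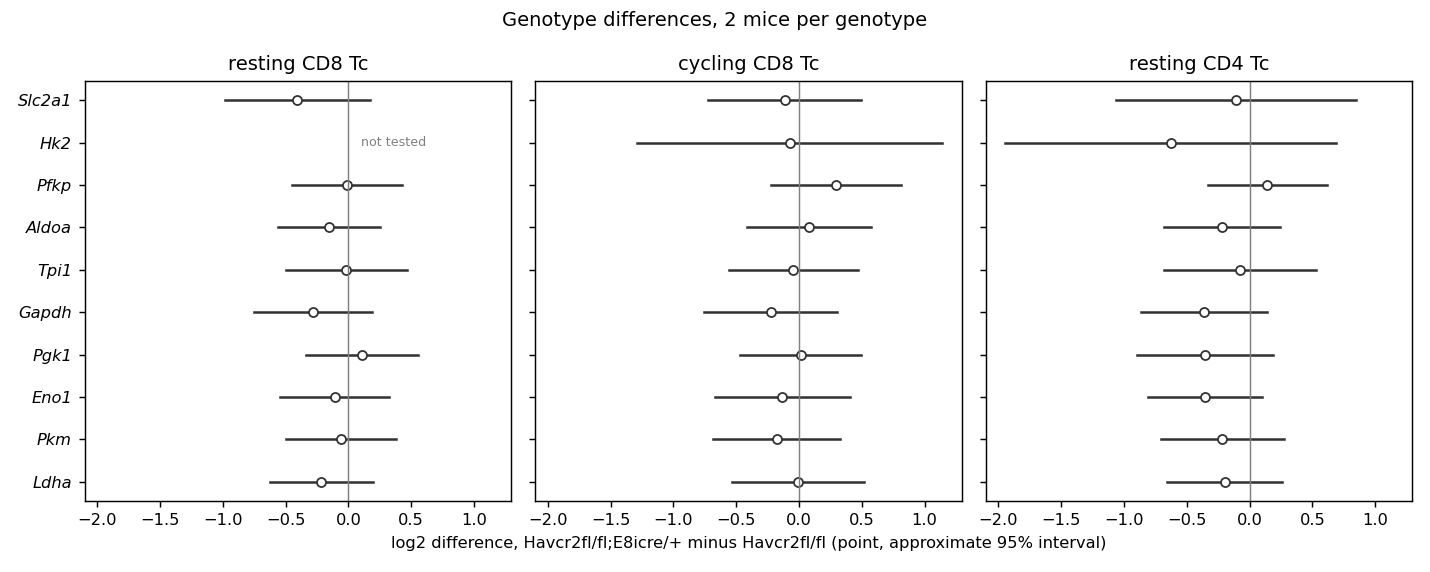
Log2 difference between genotypes (x axis, Havcr2fl/fl;E8icre/+ minus Havcr2fl/fl, n = 2 libraries each) of the 10 genes (y axis) in resting CD8+, cycling CD8+ and resting CD4+ Tc, with 95% intervals as lines and open points where the adjusted p was not below 0.05. All points are open and every interval includes 0, and Hk2 had too few counts in resting CD8+ Tc.

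For all CD8+ Tc, simulated counts of 10664 genes with known changes were put through the same fit. It found 40% of the simulated log2 changes of 1 and 0% of those of 0.5. The changed genes were drawn at random from all 10664, with a spread set by the trend over level. These shares are thus no detection limit for the glycolysis genes, whose own intervals are given above.

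The library labelled Havcr2fl/fl;E8icre/+ replicate 1, whose Havcr2 level lay inside the range of the controls, was also left out of these comparisons. That fit takes the remaining library of its genotype to vary like the others. The differences then ran from -0.48 to 0.05 in all CD8+ Tc, from -0.68 to 0.05 in resting CD8+ Tc, from -0.28 to 0.25 in cycling CD8+ Tc, from -0.96 to -0.02 in resting CD4+ Tc and from -0.34 to 0.50 for the interaction. Havcr2 itself differed by -1.35 in all CD8+ Tc (SE 0.63, adjusted p = 1.00), by -3.46 without that library and by -0.55 to -1.78 without 1 of the others. That library was left out because of its Havcr2 level, so the larger Havcr2 difference without it follows from the choice and is no test. In the edgeR fit of all libraries with no filter on low counts, the adjusted p of Havcr2 was 6.92e-07. The Havcr2 levels of the genotypes overlapped all the same. That fit called 95 genes in all CD8+ Tc, against 3 in the main fit. This p-value thus depends on the filter and is not read as a genotype difference. The 10 genes also moved with the other libraries, with 0 past the threshold each time. With Havcr2fl/fl;E8icre/+ replicate 2 left out, the highest difference was 0.69 in resting CD8+ Tc and 0.37 in resting CD4+ Tc. With Havcr2fl/fl replicate 1 left out, the highest was 0.56 in resting CD8+ Tc, 0.52 in cycling CD8+ Tc and 0.48 in resting CD4+ Tc. With Havcr2fl/fl replicate 2 left out, the highest was 0.36 in all CD8+ Tc and 0.36 in resting CD8+ Tc, and the range was -0.73 to 0.67 in cycling CD8+ Tc and -1.12 to 0.73 for the interaction. The lowest in resting CD4+ Tc was then -0.96. With each library left out in turn, the interaction had its lowest value between -1.12 and -0.15 and its highest between 0.16 and 0.73.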

How the data were processed

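Single-cell RNA-Seq was analysed from spleen Tc of 4 mice, 2 per donor genotype, with 1 library per mouse, grouped by the labels. The authors deposited unnormalized UMI counts per gene and cell, made with Cell Ranger 6.1.2 against mm10 per their processing notes, for 32285 genes and 1 antibody tag that was left out. Cell Ranger's handling of reads shared between gene copies can lower genes with near-identical copies. Gene positions came from GENCODE M21 on GRCm38, which held 32158 of the gene identifiers (99.6%).

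Barcodes were required to have 500 genes, 1000 UMIs and no more than 10% mitochondrial UMIs, and cells with the highest Scrublet scores were removed at 0.8% per 1000 barcodes (scanpy 1.11.5). Cells were clustered in Seurat 5.3.0 (30 dimensions of 2000 variable genes without the glycolysis lists, 20 neighbors), which gave 21 clusters of all cells, 10 of CD8+ Tc and 6 of CD4+ Tc. UMIs were summed per library and class and tested with edgeR 4.0.16 (TMM, filterByExpr, quasi-likelihood test, Benjamini-Hochberg adjustment over all genes, threshold 0.05). The mouse was a block where classes of the same mouse were compared. Genotypes were compared without a block, since nothing says that equal replicate numbers mark a pair. The fit was tested on simulated data. For cycling against resting cells, log2 changes of 1 were found for 82.7% of changed genes in CD8+ Tc (9629 genes in all). In CD4+ Tc (7893 genes) the share was 65.3%. Changes of 0.5 were found for 50.5% in CD8+ and 13.5% in CD4+ Tc. The simulations changed few genes, balanced up and down, and set the same mean for all mice. They thus do not test the fit with as many changes as the real comparison had, or with differences between mice.

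The glycolysis genes, the other lists and the tests were chosen with earlier results of these data known. Named are all 10 glycolysis genes, genes of the lists of other enzymes and of regulators past the threshold in cycling against resting CD8+ Tc or read across cell types, the 5 genes outside the lists with the most similar levels, and Havcr2. Gpi1, Hk1, Hif1a, Eno1b and the isoform genes Pklr, Pfkm, Bpgm and Hk3 were named after their values were seen. Alternatives were DESeq2 1.42.0, its size factors in edgeR, no filter on low counts, doublets kept, a stricter cell filter (1000 genes, 5% mitochondrial UMIs), cells thinned to 2000 UMIs, another cut between resting (0 to 1) and cycling (10 or more), cycling by cluster, the mouse or replicate block added or removed, and each library left out. Nothing says whether libraries of a group were prepared apart, so p-values cover the spread between these mice. Intervals of fitted differences are approximate. R 4.3.3 and Python 3.11.15 were used, and figures were drawn with matplotlib 3.10.9. Other experiments of the study were not used here.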

Additional observations from a re-analysis of the deposited data

Results flagged for a closer look

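In 2 of 20 groups of 4 mice, 1 mouse lay far from the other 3 in the difference between cycling and resting cells, by Dixon's test at the 95% level, which chance alone gives in about 1 of 20 groups. For Gapdh in CD8+ Tc, the difference in log2(CPM + 1) was 0.8611 in Havcr2fl/fl;E8icre/+ replicate 2 and 0.746 to 0.759 in the other 3 mice. For Tpi1 in CD4+ Tc, it was 1.569 in Havcr2fl/fl replicate 1, whose cycling sum rested on 14 cells, and 1.06 to 1.13 in the other 3.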

How the results depend on the processing

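The number of glycolysis genes past the threshold in cycling against resting CD8+ Tc was 7, and 6 without the mouse as a block, 8 without Havcr2fl/fl replicate 1, 9 with cycling taken from clusters and 7 under the other alternatives. Leaving out each library gave 7 to 8 genes in CD8+ and 7 to 8 in CD4+ Tc, 0 for the interaction of lineage and cycling, 1 for G2/M against S phase, 5 to 6 for resting CD8+ against CD4+ Tc and 0 for each genotype comparison. On thinned cells 5 genes passed in CD4+ Tc, with fewer UMIs to test. With no replicate block, 0 genes passed for G2/M against S phase and 0 for resting CD8+ against CD4+ Tc. Gapdh between resting CD8+ and CD4+ Tc, at 0.01, turned to -0.0098 with the stricter cell filter and -0.0113 with the stricter cut, and Slc2a1, at -0.10, ran from -0.19 to 0.0749 with each library left out (the latter without Havcr2fl/fl;E8icre/+ replicate 1). The cause was not tested. Thinning lowered the sum of the 10 genes in all cells outside the T cell clusters from 2480 to 1929 CPM, since each cell then counts alike. The sums of 158.8 CPM in cluster 7 and 1197 CPM in cluster 19 outside hemoglobin and immunoglobulin genes were an alternative chosen after seeing the data.

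Same-numbered libraries of the genotypes did not deviate together (correlations of -0.13, -0.04, -0.02 and 0.02 in all, resting and cycling CD8+ and resting CD4+ Tc). The replicate block called 0, 0, 0 and 6 genes there, and the crossed pairing, added after seeing the data, 64, 10, 26 and 6, none of them a glycolysis gene. Over all genes, the count of calls moved from 5145 to between 2779 and 5429 for cycling CD8+ Tc, from 3276 to between 981 and 3430 for CD4+ Tc, from 14 to between 0 and 78 for their interaction, from 1153 to between 373 and 1207 for G2/M and from 1842 to between 772 and 2023 for resting CD8+ against CD4+ Tc. For genotype, 3, 4, 0, 5 and 0 calls became at most 95, 98, 49, 72 and 19. Under DESeq2, 81% of the G2/M calls were higher against 57.8%. Without a filter on low counts the median difference of all genes was -0.137 in CD8+ and -0.224 in CD4+ Tc.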
